A study of Mus musculus with 48 samples.

Results

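Ependymal-type *Foxj1* cells were taken from single-cell RNA sequencing of the mouse hypothalamus at stage E18.5 (late gestation) as the cells with at least 1 UMI of *Foxj1* and at least 2 detected genes among *Ccdc153*, *Tmem212*, *Rarres2* and *Dynlrb2*. A UMI is a random tag that marks 1 captured transcript molecule. The rule found 156 of 14121 cells, 53 of the 7186 control cells and 103 of the 6935 *Eed-cKO* cells. The cells that carried *Foxj1* with none of the 4 markers numbered 580 (211 control, 369 *Eed-cKO*), those with 1 marker numbered 227 (57 control, 170 *Eed-cKO*), and the remaining 13158 cells had no *Foxj1* UMI. Members were chosen on these 5 genes, so the levels of the 5 genes, and any difference between members and other *Foxj1* cells, are given as a description with no test.

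The study asked what the loss of polycomb repressor complex 2 (PRC2) does to cell specification in the hypothalamus. Both genotypes were homozygous for a floxed *Eed* allele on a mixed B6:129S1 background: control embryos were *Eed* fl/fl, and *Eed-cKO* embryos were *Eed* fl/fl; Sox1-Cre/+. Cre inserted in the *Sox1* locus is active across the early central nervous system, so vascular, meningeal and other non-neural cells of the same dissections kept *Eed*. The 6 control embryos (2 female, 4 male) gave 22 libraries and the 9 *Eed-cKO* embryos (5 female, 4 male) gave 26, since each hypothalamus was divided into pieces. Replicates are therefore embryos, with the pieces of 1 embryo summed.

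Ependymal cells line the brain ventricles and move the cerebrospinal fluid with tufts of motile cilia. They arise from radial glia around the end of embryonic life and mature after birth. *Foxj1* encodes the forkhead factor that switches on the genes of motile cilia, largely together with the RFX factors, which bind the X-box in the promoters of cilium genes. EED is a core subunit of PRC2, the complex that places the repressive mark H3K27me3, and patterning genes such as the Hox genes and inhibitors of the cell cycle are among its best known targets.

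A control library held 1112165 to 4513505 UMIs and an *Eed-cKO* library 576432 to 2410229. One control library stood apart with 1207 cells, against 163 to 465 in the others. Of 14019 barcodes, 101 occurred in more than 1 library, any 2 libraries shared at most 2, and 1 member carried a barcode that also occurred elsewhere. The embryo names begin with a number that was read as the litter, which gave 4 control and 6 *Eed-cKO* litters, none with both genotypes. Litter and genotype therefore cannot be told apart. The sequenced 3′ end of *Eed* lies outside the floxed exons, so its UMIs do not check the deletion. In members *Eed* was at 50 ± 33.5 CPM (n = 5 control embryos; CPM are UMIs scaled to a common total, normalized per embryo) and 16.6 ± 13.9 (n = 8 *Eed-cKO* embryos), with overlapping embryos (log2 fold change -1.79, edgeR adjusted p = 0.449). Values after ± are SD throughout.

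The 4 rule markers were not carried evenly. *Dynlrb2*, a dynein light chain (chromosome 8, 116504974-116515915, mm10), was detected in 100% of control and 97.1% of *Eed-cKO* members. *Rarres2*, which encodes the secreted protein chemerin, was detected in 84.9% and 78.6%. *Tmem212*, a transmembrane protein gene, was detected in 71.7% and 58.3%, and *Ccdc153*, a coiled-coil protein gene, in 67.9% and 40.8%. A control member held a median of 13 *Foxj1* UMIs and an *Eed-cKO* member 5, at median totals of 4913 and 4988 UMIs per cell. At least 10 *Foxj1* UMIs were held by 62.3% of the members in control and 32.04% in *Eed-cKO*. Summed per embryo, *Foxj1* was at 2027 ± 1162 CPM in control and 1605 ± 771 CPM in *Eed-cKO* members.

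All 4 markers were present in 29 of 53 control members (54.7%) and in 25 of 103 *Eed-cKO* members (24.3%). Only 2 markers were present in 16 (30.2%) and 51 (49.5%), and 3 markers in 8 (15.1%) and 27 (26.2%). The control cells with all 4 markers came mainly from a pair of embryos, with 14 of the 20 members of F4650 E1 and 10 of the 15 members of F4650 E2. The control embryo F4690 E3 had 0 such cells among 5 members, and in the *Eed-cKO* embryo F502 E9 all 7 members had 2 markers. Control members were thus described mostly by 2 embryos, and F4650 E1 alone held 37.7% of them. The largest *Eed-cKO* embryo held 24.3%.

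The threshold of 2 markers cut through a gradient. Just outside it, cells with 1 marker held a median of 1 *Foxj1* UMI in control and 2 in *Eed-cKO*. Just inside it, cells with 2 markers held 2 and 3, while cells with 3 markers held 15.5 and 8 and cells with all 4 held 16 and 14. In cells with at least 3 UMIs of endothelial, pericyte, leptomeningeal or microglial genes, *Ccdc153* was detected in 1.88% of 373 cells in control and 1.78% of 842 cells in *Eed-cKO*, and *Tmem212* in 1.88% and 2.85%, at median totals of 4126 and 4693.5 UMIs. *Dynlrb2* was found in 3.49% and 12.8% of these cells and *Rarres2* in 16.9% and 23.3%. *Foxj1* itself was found in 5.36% and 22.4%. Of these cells, 7 control and 41 *Eed-cKO* cells (4.87%, against 1.49% of all *Eed-cKO* cells) were members. The set was thus richer in members than the whole and was chosen in part on *Acta2*, so these shares are no measure of free RNA.

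Promoter sequences are shown for 2 of the rule markers that hold the 6-base core of the X-box and 1 that does not, and for *Dnah10*, an axonemal dynein heavy chain gene that the rule did not use. The 250 bases before the transcription start are given 5′ to 3′ on the gene's strand, from RefSeq on GRCm38.p6, with the core GTTGCC in capitals. They lie at chr9:44240427-44240676 (plus strand) for *Ccdc153*, chr8:116504765-116505014 (plus) for *Dynlrb2*, chr5:124724835-124725084 (plus) for *Dnah10* and chr3:27896369-27896618 (minus) for *Tmem212*.
Ccdc153: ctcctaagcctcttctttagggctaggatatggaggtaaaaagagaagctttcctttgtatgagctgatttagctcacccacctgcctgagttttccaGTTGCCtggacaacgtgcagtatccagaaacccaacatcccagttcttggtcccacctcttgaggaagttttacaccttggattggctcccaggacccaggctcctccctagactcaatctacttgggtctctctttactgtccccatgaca
Dynlrb2: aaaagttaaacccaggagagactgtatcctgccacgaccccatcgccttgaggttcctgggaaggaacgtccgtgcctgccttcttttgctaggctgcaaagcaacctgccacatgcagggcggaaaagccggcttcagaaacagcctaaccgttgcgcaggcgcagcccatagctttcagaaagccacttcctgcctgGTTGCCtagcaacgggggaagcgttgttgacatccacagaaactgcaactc
Dnah10: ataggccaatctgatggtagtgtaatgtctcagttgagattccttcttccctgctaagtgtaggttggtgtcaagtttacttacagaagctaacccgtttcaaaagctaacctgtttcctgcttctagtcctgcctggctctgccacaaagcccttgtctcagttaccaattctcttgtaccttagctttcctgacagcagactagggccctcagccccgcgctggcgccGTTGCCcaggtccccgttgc
Tmem212: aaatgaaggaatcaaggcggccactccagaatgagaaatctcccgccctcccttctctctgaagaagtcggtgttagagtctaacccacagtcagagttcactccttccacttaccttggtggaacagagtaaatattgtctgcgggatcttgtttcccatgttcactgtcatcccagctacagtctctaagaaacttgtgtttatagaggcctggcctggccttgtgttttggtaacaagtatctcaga
The core begins 152 bases before the start in *Ccdc153*, 51 bases before it in *Dynlrb2* and 20 bases before it in *Dnah10*.

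Among the motile cilium genes with a promoter in the table, 47 of 97 (48.5%) held GTTGCC on either strand within a window from 250 bases before to 50 bases after the start. The same letters were found in 8 of 21 other ependymal genes (38.1%) and in 3821 of all 27025 genes (14.1%). The longer palindromic X-box, with free bases at its less fixed positions, was found in 3 of 97 motile cilium genes (3.09%) and in 0.529% of all genes. The forkhead letters TGTTTAC were found in 4 of 97 (4.12%) against 4.05% of all genes. These matches are descriptions of the letters in these windows.

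Beyond the 5 rule genes, members carried the transcripts of the motile cilium. Of 91 motile cilium genes (regulators of multiciliation, axonemal dynein arms, dynein assembly factors, radial spokes and central pair, and ciliary microtubule proteins), a control member thinned to 2000 UMIs showed a median of 33 and an *Eed-cKO* member 24. Thinned *Foxj1* cells with none of the markers showed 4 and 5. The count followed the number of markers: 9 and 8 genes with 1 marker, 21 and 14.5 with 2, 33.5 and 25 with 3, and 38 and 34 with all 4 (control and *Eed-cKO* in each pair). Cells with 3 or 4 markers therefore carried the broad set of motile cilium genes in both genotypes. The cells with 2 markers lay between these and the cells without markers, most of all in *Eed-cKO*.

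**Figure D1:**
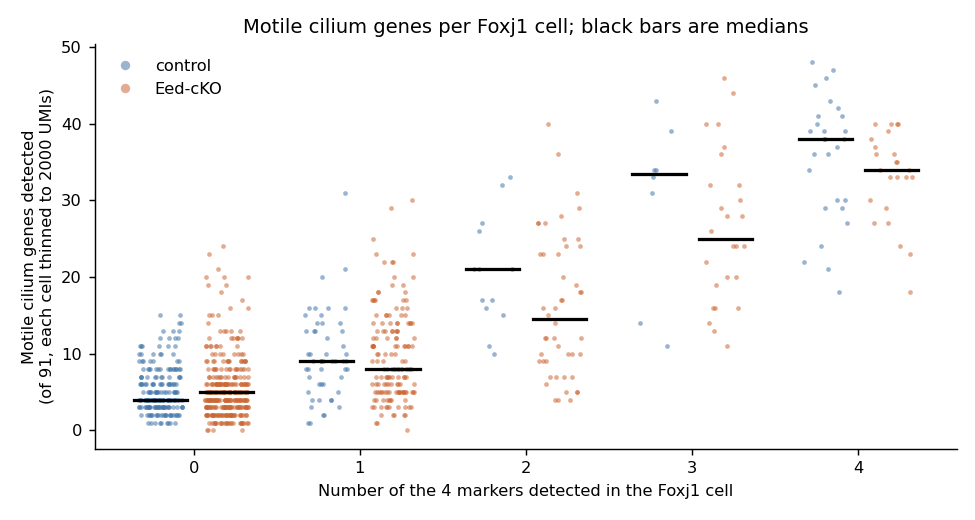
Number of motile cilium genes detected, of 91, in each *Foxj1* cell thinned to 2000 UMIs (y axis), by how many of the 4 rule markers the cell carried (x axis) and by genotype. Each point is a cell and black bars are medians, which climb from 4 and 5 without markers to 38 and 34 with all 4. From 1 marker upward the *Eed-cKO* medians lie below those of control.

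The genes that set members apart most from *Foxj1* cells without the markers, other than the rule genes, also included cilium genes. *Lrrc71* (195 against 2 UMIs in 46.8% and 0.345% of cells) and *Fam216b* (250 against 4 UMIs in 49.4% and 0.690% of cells) led the order by ratio, followed by *Dnah10* (137 against 2 UMIs), *Tctex1d4*, *Cdhr3*, *Ccna1*, *Hdc*, *Tmem232*, *Spag17* and *Car9*. *Spag17* encodes a protein of the central pair of the axoneme, and *Hdc* encodes the enzyme that makes histamine, here detected in 52.6% of members and 1.90% of cells without markers. Each of these 10 genes had a higher level in members in 10 to 13 of 13 embryos. Neuronal transcripts lay the other way: the summed level of 12 neuron markers was 192 to 3830 CPM in the control and 404 to 5366 in the *Eed-cKO* embryos' members, against 6998 to 10938 and 4314 to 9378 in the *Foxj1* cells without markers. The label of ependymal type thus held for the broad set of cilium genes, least so for cells with 2 markers.

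Members made up a mean of 0.723% ± 0.569 of all cells in control (n = 6) and 1.39% ± 0.809 in *Eed-cKO* embryos (n = 9). The control embryos held 0.458% (F4520 E2), 0.430% (F4520 E4), 0.269% (F4530 E2), 1.802% (F4650 E1), 0.901% (F4650 E2) and 0.480% (F4690 E3). In *Eed-cKO* the lowest was 0 of 217 cells in F0582 E2, which allows a share of up to 1.38%, the median was 1.28% and the highest was 2.99% in F0652 E8. The groups overlapped, with 2 of 9 *Eed-cKO* embryos above every control embryo. The difference of 0.668 percentage points did not pass the test (exact two-sided permutation over every split of the embryos, p = 0.0915, adjusted p = 0.122 over the 4 shares tested). A share of cells depends on the other cells recovered as well as on the members.

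That difference was sensitive to which cells counted. It was 0.171 percentage points with at least 3 markers asked for (0.501% control, 0.672% *Eed-cKO*) and 0.299 without the cells with at least 3 UMIs of non-neural genes (0.663% and 0.962%). With cells thinned to 1000, 2000 or 4000 UMIs it was 0.0915, 0.210 and 0.166. It was 0.883 without the control embryo F4650 E1 and 0.841 without the *Eed-cKO* embryo F0582 E2, and both of these passed the test (exact permutation, adjusted p = 0.0320 and 0.0240). Several embryos share a litter, and with the 4 control and 6 *Eed-cKO* litters as samples the difference was 0.802 and passed the test (exact permutation, adjusted p = 0.0381). In all these settings the mean was higher in *Eed-cKO*.

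The 2 groups of *Foxj1* cells outside the rule did differ between genotypes. Cells with 1 marker made up 0.817% ± 0.362 of control and 2.52% ± 0.960 of *Eed-cKO* embryos' cells, with 8 of 9 *Eed-cKO* embryos above every control embryo (exact permutation, adjusted p = 0.0032). Cells without markers made up 3.02% ± 0.858 and 5.28% ± 1.81, with 7 of 9 above (exact permutation, adjusted p = 0.0240). The second call was lost without the control embryo F4650 E2 (adjusted p = 0.0579, exact permutation). Both calls held in the other alternatives, but the differences changed in size. For 1 marker it was 0.557 percentage points with cells thinned to 1000 UMIs and 1.04 without the non-neural cells. Of the 23 cells with 1 marker in F502 E6, the highest embryo, 18 held at least 10 UMIs of *Ttr*, a choroid plexus gene. A single *Foxj1* UMI was held by 77.7% of control and 67.2% of *Eed-cKO* cells without markers. With at least 2 asked for, their share differed by 0.994. Members as a share of the *Foxj1* cells were 15.8% ± 10.99 in control and 14.4% ± 7.87 in *Eed-cKO*, a difference of -1.42 percentage points that did not pass the test (exact permutation, adjusted p = 0.769). Of an embryo's *Foxj1* UMIs, members held 80.7% and 75.4% in the control embryos F4650 E1 and F4650 E2, 15.1% to 57.8% in the other 4 and 0 to 72.0% in *Eed-cKO*, with overlap.

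**Figure D2:**
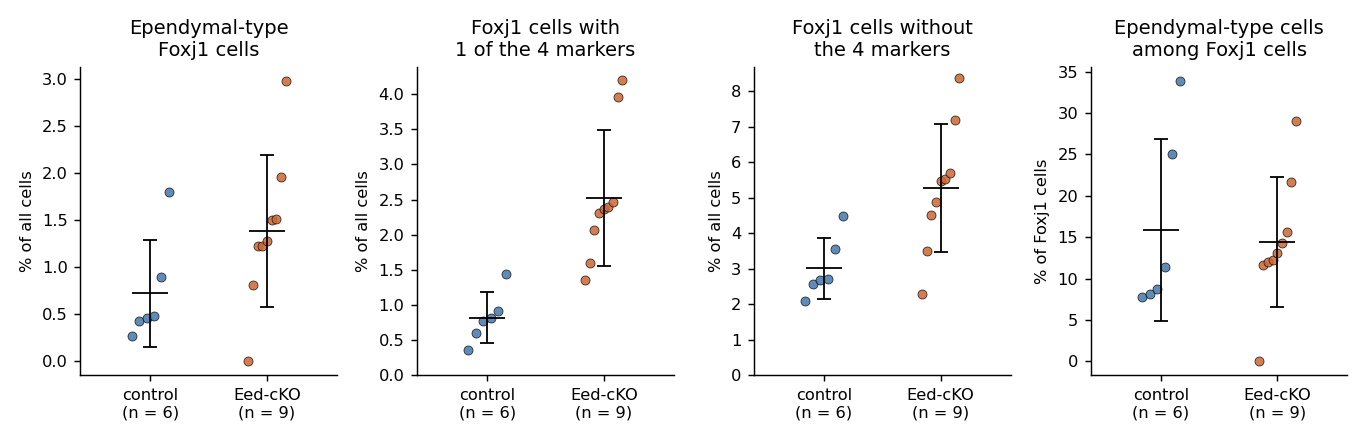
Percent of an embryo's cells that were ependymal-type *Foxj1* cells, *Foxj1* cells with 1 marker or *Foxj1* cells without markers, and members as a percent of the *Foxj1* cells (4 panels, percent on the y axes). Points are embryos (n = 6 control, n = 9 *Eed-cKO*) with mean ± SD, and the genotypes are best separated for the cells with 1 marker (0.817% against 2.52%).

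Averaged over embryos, members carried fewer motile cilium genes in *Eed-cKO*, but the test did not pass. In cells thinned to 2000 UMIs the control medians were 33 genes in F4520 E2, 37.5 in F4650 E1, 27 in F4650 E2 and 17 in F4690 E3. The *Eed-cKO* medians ran from 9.5 in F0588 E7 to 29 in F0652 E8. The 4 control embryos averaged 28.6 ± 8.86 and the 8 *Eed-cKO* embryos 19.9 ± 6.44, with overlap (difference -8.69, exact two-sided permutation, p = 0.0970). Only embryos with at least 5 members of 2000 UMIs entered. The difference was -12.6 in 2 alternatives that passed the test, namely without the control embryo F4690 E3, none of whose members had all 4 markers (exact permutation, p = 0.0364), and with every embryo that had a member (exact permutation, p = 0.0167).

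Expression was compared between the genotypes in the summed UMIs of the members of each embryo with at least 5 members, 5 control embryos (50 cells) and 8 *Eed-cKO* embryos (103 cells). Of 9641 genes tested, 36 (0.373%) differed at an adjusted p of 0.05 (edgeR quasi-likelihood test), 31 higher (0.322%) and 5 lower (0.0519%) in *Eed-cKO*. At an unadjusted p of 0.05, 757 genes passed. The higher genes included the D-type cyclins *Ccnd2* and *Ccnd1* and the contractile gene *Acta2*. *Crym* and *Nes* of the tanycyte list and *Aqp4* of the astrocyte and radial glia list were also higher, with the rest of these lists given below. The lower genes included *Nts*, *Trpc7*, *Dgat2* and *Slc17a8*.

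*Ccnd2*, which encodes cyclin D2, a driver of the G1 phase of the cell cycle (chromosome 6, 127125162-127152193), showed the clearest rise. Its level was 70.7, 0, 209, 93.9 and 74.3 CPM in the control embryos F4520 E2, F4520 E4, F4650 E1, F4650 E2 and F4690 E3, and 473, 1195 and 1802 CPM in the lowest, median and highest *Eed-cKO* embryo. The groups were fully separated (89.6 ± 75.6 against 1177 ± 487 CPM, log2 fold change 3.41, SE 0.44, edgeR adjusted p = 3.07e-06). It was higher in *Eed-cKO* at each number of markers: pooled over cells, *Ccnd2* was at 92.8, 93.3 and 124 CPM in control members with 2, 3 and 4 markers, and at 1068, 1570 and 673 in *Eed-cKO*. In the cells with all 4 markers, where 2 embryos of each genotype could be fitted, the log2 fold change was 1.40 and was not called (edgeR adjusted p = 0.711). *Ccnd2* overlaps annotated antisense transcripts. *Ccnd1*, which encodes cyclin D1 and lies outside the rule for named genes, was chosen after its values were seen (54.2 ± 77.0 against 505 ± 267 CPM, log2 fold change 3.37, edgeR adjusted p = 0.000143).

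*Crym*, which encodes the thyroid hormone-binding protein mu-crystallin and marks tanycytes, the radial glia-like cells of the ventricle floor (chromosome 7, 120186380-120202111), was rare in control members with 3 UMIs, and *Eed-cKO* members held 206. Its control levels were 47.1 CPM in F4520 E2, 37.2 CPM in F4690 E3 and 0 in the other 3 embryos, and the *Eed-cKO* embryos had 62.4, 226 and 725 CPM as lowest, median and highest. All *Eed-cKO* embryos lay above all control embryos (edgeR adjusted p = 0.000143), and the ratio of pooled UMIs was 28.8 with a 95% counting interval of 9.72 to 140.9. The 0 of F4520 E4 comes from 15628 UMIs and, with the limit of 3 counts, allows a level above the lowest *Eed-cKO* embryo. *Crym* was called in every alternative in which it could be fitted.

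*Nes*, which encodes the intermediate filament nestin of neural progenitors and tanycytes (chromosome 3, 87971078-87980451), was at 0, 0, 73.1, 40.2 and 74.3 CPM in the control embryos in the same order as for *Ccnd2*. In *Eed-cKO* it was at 125, 206 and 533 CPM. The groups did not overlap (37.5 ± 36.9 against 245 ± 132 CPM, log2 fold change 2.51, SE 0.50, edgeR adjusted p = 0.00533). *Aqp4*, the water channel of astrocytes and ependymal cells, was at 23.6, 49.9, 62.7, 40.2 and 74.3 CPM in control and at 83.5, 254 and 357 CPM in *Eed-cKO*, again without overlap (50.1 ± 19.7 against 242 ± 88.6 CPM, log2 fold change 2.23, SE 0.46, edgeR adjusted p = 0.00652). Both genes were higher in *Eed-cKO* at each number of markers in the pooled levels: *Nes* was at 92.8, 15.5 and 33.9 CPM in control against 190, 471 and 251 in *Eed-cKO* members with 2, 3 and 4 markers, and *Aqp4* at 74.2, 15.5 and 45.2 against 149, 288 and 275. These control levels rest on 5, 1 and 6 UMIs of *Nes* and on 4, 1 and 8 UMIs of *Aqp4*. The 0 of *Nes* in F4520 E4 comes from 15628 UMIs. With the limit of 3 counts it allows a level above the lowest *Eed-cKO* embryo. Neither gene was called among embryos with at least 10 members, after thinning to 2000 UMIs or in cells with all 4 markers, and *Aqp4* was not called with limma-voom and TREAT.

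*Acta2*, which encodes smooth muscle actin (chromosome 19, 34241090-34255590), was at 0, 0, 104, 13.4 and 0 CPM in control and at 83.5, 240 and 592 CPM in *Eed-cKO*, with a single overlapping control embryo (23.6 ± 45.6 against 288 ± 175 CPM, log2 fold change 2.87, edgeR adjusted p = 0.0033). It was not called among embryos with at least 1, or at least 10, members, nor in cells with at least 3 or with all 4 markers. Of the other 4 pericyte and smooth muscle markers, *Pdgfrb* was at 13.7 ± 18.9 and 30.04 ± 27.8 CPM (log2 fold change 0.88, edgeR adjusted p = 0.897) and *Vtn* at 59.2 ± 81.01 and 46.6 ± 75.2 (-0.49, edgeR adjusted p = 0.941). *Rgs5* had 0 and 2 UMIs and *Kcnj8* had 0 in both genotypes. *Tagln*, a smooth muscle gene outside the list, was called higher. The summed level of the 5 markers ranged over 0 to 239 CPM in control and 159 to 523 in *Eed-cKO* embryos. *Mpp6*, a scaffold protein gene, had 2 control and 79 *Eed-cKO* UMIs (ratio 16.6, counting interval 4.44 to 139, edgeR adjusted p = 0.00475).

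Among the named rises, 7 genes, *Ttr* among them, had no UMI in control members, so their folds are lower bounds against 3 UMIs over all control embryos. *Igfbpl1*, an insulin-like growth factor-binding protein-like gene, was at least 7.55-fold higher (edgeR adjusted p = 0.00809), *Olig1*, a factor of the oligodendrocyte lineage, at least 5.87-fold (adjusted p = 0.0256, edgeR), and *Ifitm1* at least 8.67-fold (edgeR adjusted p = 0.0366). *Snrnp48*, a spliceosome gene, was at least 5.31-fold higher, the kinase gene *Nuak1* and the matrix gene *Fbln2* each at least 5.03-fold (edgeR adjusted p = 0.0292, 0.0370 and 0.0485). Of these 6, *Igfbpl1* was called whichever embryo was left out, and the other 5 in 4 to 9 of the 13 fits with an embryo left out. *Igfbpl1* was not called by DESeq2, by limma-voom with TREAT or after thinning to 2000 UMIs. Its call was also lost without likely doublets, without pituitary cells and with at least 3 markers. *Olig1* was not called by DESeq2, by limma-voom with TREAT, without likely doublets or without pituitary cells, and 38 of its 42 UMIs in *Eed-cKO* lay in cells with 2 markers. Of the other 4 oligodendrocyte precursor markers, *Olig2* had 3 and 13 UMIs in control and *Eed-cKO* members (log2 fold change 0.75, edgeR adjusted p = 0.934), *Pdgfra* and *Cspg4* each had 1 and 2, and *Sox10* had 0 in both.

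Another 18 called genes fell outside the rule for named genes and were read after their values were seen. Besides *Ccnd1* and *Npy* they included the immediate early genes *Egr3*, *Nr4a3* and *Atf3*, which respond within minutes to stimulation or stress. *Nr4a3* was at 125 ± 74.1 against 664 ± 261 CPM (log2 fold change 2.33, edgeR adjusted p = 0.00128) and *Atf3* at 175 ± 156 against 767 ± 389 CPM (1.96, edgeR adjusted p = 0.0146). Matrix and cytoskeleton genes among them were *Eln* (elastin, log2 fold change 2.87), *Flnc* (filamin C, 2.79), *Palld* (palladin, 2.00), *Tagln* (transgelin, 1.98) and *Timp3* (a metalloproteinase inhibitor, 1.97). *Tagln* was called in 6 and *Palld* in 7 of 13 fits with an embryo left out. *Igfbp5*, an insulin-like growth factor-binding protein gene, was the most abundant of all, at 522 ± 312 against 2077 ± 1155 CPM, with no overlap (log2 fold change 2.04, edgeR adjusted p = 0.00657). *Wls*, needed for WNT secretion, *S100a6* and *Flnc* did not overlap either, and *Tmem132c*, *Mest*, *Megf11* and *Gapdh* were also in the set.

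*Ttr*, the choroid plexus gene for transthyretin, was called higher (edgeR adjusted p = 0.00657), but 1 embryo carried it. F502 E6 was at 118991 CPM, and the other 7 *Eed-cKO* embryos were at 0 to 17.01 CPM. Of 4427 UMIs, 4424 came from members of F502 E6, nearly all from 3 cells with 2443, 1809 and 171 UMIs. These 3 cells also held 38, 54 and 3 UMIs of the other choroid plexus markers. F502 E6 contained 43 cells with at least 10 *Ttr* UMIs, 32 of them with *Foxj1*.

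**Figure D3:**
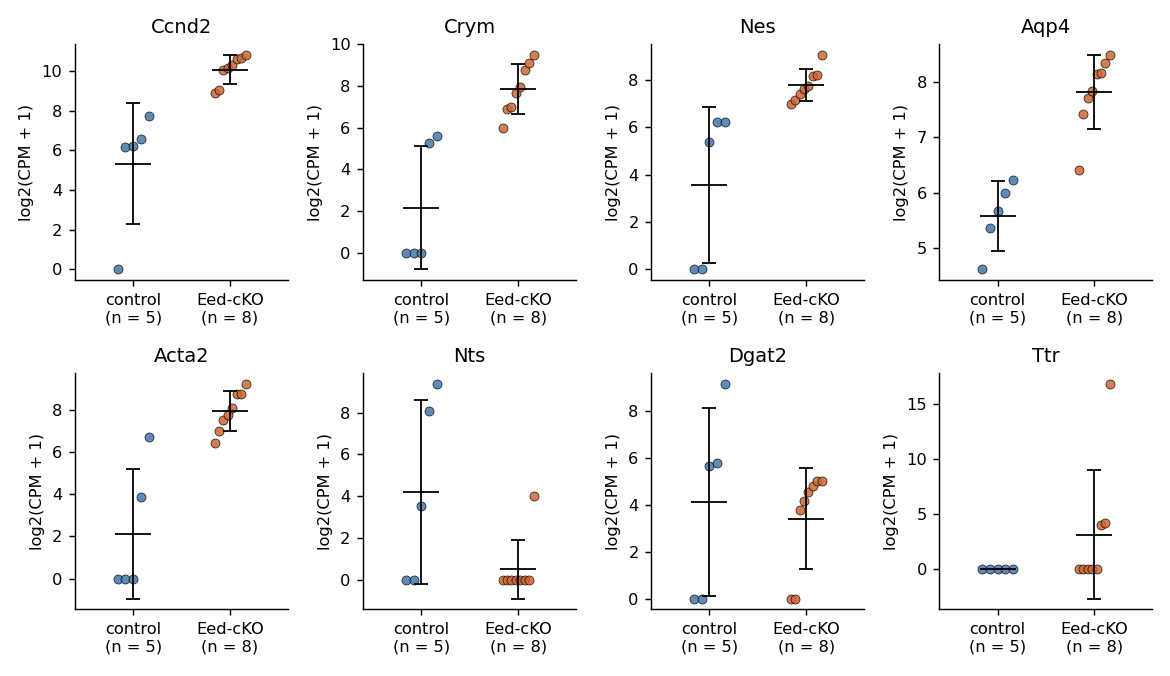
Levels of 8 genes in ependymal-type *Foxj1* cells as log2(CPM + 1) per embryo (y axes), for control (n = 5) and *Eed-cKO* (n = 8), with mean ± SD. *Ccnd2*, *Crym*, *Nes* and *Aqp4* lie higher in every *Eed-cKO* embryo than in any control embryo, *Acta2* and *Dgat2* overlap, the fall of *Nts* rests on a few control embryos, and *Ttr* is carried by the 118991 CPM of F502 E6.

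The 5 falls were smaller in number and mostly of low counts. *Slc17a8*, which encodes the vesicular glutamate transporter VGLUT3 (chromosome 10, 89574020-89621253), was at 212, 99.7, 292, 174 and 74.3 CPM in control and at 14.8, 41.4 and 125 CPM in *Eed-cKO* (log2 fold change -1.86, edgeR adjusted p = 0.0394). Its call held in 10 of 28 alternatives.

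*Nts*, which encodes the neuropeptide neurotensin (chromosome 10, 102481756-102490486), fell from 49 UMIs in control to 2 in *Eed-cKO* members (edgeR adjusted p = 0.000143). It was uneven within control, at 660 CPM in F4520 E2, 268 CPM in F4650 E2, 10.4 CPM in F4650 E1 and 0 in the other 2 embryos, and the ratio of pooled UMIs was 58.4 (counting interval 15.3 to 495.7). The 49 UMIs came from 5 cells. *Nts* was not called by DESeq2, by limma-voom with TREAT or among embryos with at least 10 members. *Dgat2*, a triglyceride synthesis enzyme gene, was at 0, 49.9, 574, 53.7 and 0 CPM in control and at 0, 19.6 and 31.8 CPM in *Eed-cKO* (log2 fold change -3.16, edgeR adjusted p = 0.00628), and it was not called without F4650 E1. *Trpc7*, a cation channel gene, fell from 15 control UMIs to 1 in *Eed-cKO* (ratio 35.8, counting interval 5.50 to 1505, edgeR adjusted p = 0.0456). Among control embryos it was at 136 CPM in F4650 E1 and at 0 to 26.8 in the others. The *Trpc7* call held in 12 of 24 alternatives, among them 4 of 11 fits with an embryo left out. It was lost with DESeq2, with limma-voom and TREAT and without likely doublets.

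None of the 107 motile cilium genes tested in members passed the threshold, which 0.373% of all genes passed. Of the 107, 93 (86.9%) had a fitted fold change below 0, against 45.2% of all genes. Their median log2 fold change was -0.36, against 0.07 over all genes. DESeq2 and limma-voom with TREAT called 0 as well. At an unadjusted p under 0.05, 21 were lower and 0 higher in edgeR, 19 lower in DESeq2 and 8 lower in limma-voom. In these tools 757, 573 and 663 of all 9641 genes passed, in either direction. The medians were -0.15 for the regulators of multiciliation (13 genes), -0.37 for axonemal dynein arms (17), -0.60 for dynein assembly and docking (15), -0.38 for radial spokes and central pair (17), -0.40 for ciliary microtubule proteins (23) and -0.20 for intraflagellar transport (22). Among the most abundant, *Tubb4b*, a ciliary beta-tubulin gene, was at 1944 ± 1123 CPM in control and 1157 ± 388 in *Eed-cKO* (log2 fold change -0.75, edgeR adjusted p = 0.635), and *Rsph1*, a radial spoke gene, at 1175 ± 747 and 736 ± 335 (-0.71, adjusted p = 0.696). *Tppp3*, a tubulin polymerization gene, was at 1738 ± 930 and 1027 ± 463 CPM, and *Ak7*, an adenylate kinase gene of the axoneme, at 910 ± 598 and 490 ± 241. *Rfx3*, which encodes an X-box factor, was at 351 ± 209 and 333 ± 90.2 CPM, and *Ccno*, a multiciliation gene, at 167 ± 148 and 167 ± 147.

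This shift was smaller in members with more markers, but those fits held fewer embryos. With at least 3 markers, 2 control embryos (F4650 E1 and F4650 E2) and 5 *Eed-cKO* embryos were fitted. These control embryos share a litter, as read from their names. There, 65 of 103 motile cilium genes (63.1%) were below 0 with a median of -0.13, against -0.05 over all genes. With all 4 markers, 2 control and 2 *Eed-cKO* embryos were fitted. There, 54 of 95 (56.8%) were below 0 with a median of -0.08, the same as over all genes. Number of markers and set of embryos thus changed together and cannot be told apart. Over all members without F4650 E1, 66 of 107 (61.7%) were below 0 and the median was -0.15, against 0.18 over all genes. Without F4690 E3, the control embryo with the fewest markers per cell, the median was -0.50, and *Meig1* and *Dnah10* were called lower. All 4 rule markers were detected in a smaller part of the *Eed-cKO* members. Members were chosen on these markers, so this is a description and no support for the shift. In *Foxj1* cells without markers the list's median was 0.23, against 0.02 over all genes, and 4 of 95 genes were called higher and 0 lower, where 5.06% of all genes were called higher and 3.23% lower.

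**Figure D4:**
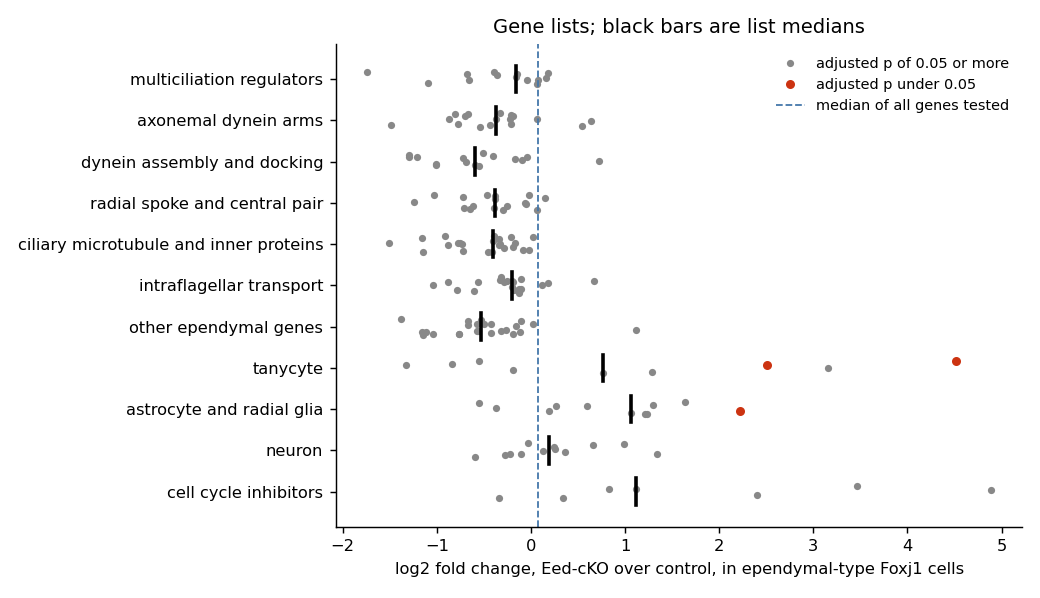
Fitted log2 fold change (*Eed-cKO* over control, x axis) of each tested gene of 11 lists in ependymal-type *Foxj1* cells (5 control and 8 *Eed-cKO* embryos). Red points passed an adjusted p of 0.05 in edgeR, black bars are list medians and the dashed line is the median of all genes (0.07): the 6 motile cilium lists lie left of it with no called gene.

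Of 25 other ependymal genes tested, 0 were called by edgeR or DESeq2, and the median was -0.53. At an unadjusted p under 0.05 in edgeR, 7 were lower and 1 higher, where 757 of all 9641 genes passed in either direction. *Pltp*, a phospholipid transfer protein gene, was at 1342 ± 649 and 847 ± 299 CPM (edgeR adjusted p = 0.642). Of 9 tanycyte genes, *Crym* and *Nes* were called higher, while 4 of the 9 had a fold change below 0. The list's median was 0.76, and *Wnt7b* was at 142 ± 10.1 and 88.2 ± 44.4 CPM (log2 fold change -0.55, edgeR adjusted p = 0.842). The tanycyte factor gene *Rax* was below the filter, with 1 and 7 UMIs. Of 11 astrocyte and radial glia genes, *Aqp4* was called, and the median was 1.06. *Slc1a3*, the glial glutamate transporter gene, was at 722 ± 1034 and 1437 ± 517 CPM (log2 fold change 1.06, edgeR adjusted p = 0.449), and *Gfap* was below the filter with 1 and 7 UMIs. Without F4690 E3, 4 of the 11 glial genes were called higher, none lower.

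None of 8 genes of dividing cells was called by edgeR, DESeq2 or limma-voom (median 0.97), and *Top2a* was at 114 ± 167 and 183 ± 120 CPM. At an unadjusted p under 0.05, 2 of the 8 passed in edgeR and 1 in DESeq2. Over all 9641 genes, 757 and 573 passed in these tools, in either direction. None of 7 cell cycle inhibitor genes was called by edgeR, DESeq2 or limma-voom either (median 1.11), and 4 of the 7 were higher at an unadjusted p under 0.05 in edgeR and DESeq2. *Cdkn1a*, which encodes p21, was at 153 ± 158 and 400 ± 178 CPM (log2 fold change 1.11, edgeR adjusted p = 0.384). *Cdkn2a*, the INK4A and ARF gene, had 0 and 35 UMIs (edgeR adjusted p = 0.0872), *Cdkn2b* 1 and 34 (adjusted p = 0.167, edgeR) and *Cdkn2c* 2 and 31 (edgeR adjusted p = 0.364). *Cdkn1c* and *Cdkn2d* were not called (log2 fold change 0.83 and 0.34). None of 8 PRC2 subunit genes was called by the 3 tools (2 were lower at an unadjusted p under 0.05 in edgeR): *Ezh2* had a log2 fold change of 0.17 and *Suz12* of 0.39, and *Ezh1* was below the filter.

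Markers of other cell types were present among members, without a rise in *Eed-cKO* across all the lists. Pooled over embryos, 7 of 53 control and 41 of 103 *Eed-cKO* members held at least 3 UMIs of endothelial, pericyte, leptomeningeal or microglial genes. This set included *Acta2*, a gene called higher. The median log2 fold change was -0.12 for the leptomeningeal genes tested, and the 1 endothelial gene tested was at -1.45. Over embryos, the summed levels were 0 to 557 CPM in control and 56.3 to 577 in *Eed-cKO* for 5 leptomeningeal genes. They were 0 to 315 and 0 to 713 for 5 endothelial genes, and 0 and 0 to 6.61 for 5 microglial genes. Summed oligodendrocyte precursor genes were at 0 to 44.2 and 0 to 163 CPM, and choroid plexus genes at 160 to 704 and 337 to 107761. Of the genes tested, 0 of 4 leptomeningeal, 0 of 1 endothelial, 1 of 2 oligodendrocyte precursor (*Olig1*), 1 of 8 choroid plexus (*Ttr*) and 0 of 12 neuron markers were called. The pituitary list (0 of 2), the forebrain regulators (0 of 6), the posterior and dorsal regulators (0 of 8) and the floor plate genes (0 of 8) had no call in edgeR or DESeq2. In edgeR 0 of the neuron, pituitary and floor plate genes and 1 of the leptomeningeal, forebrain and posterior genes each passed at an unadjusted p under 0.05. Over all 9641 genes, 757 did. The part of these other cells in the rises was not tested.

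Hox genes, which give positional identity to the hindbrain, spinal cord and trunk and are normally silent in the forebrain, were detected in *Eed-cKO* members and in no control member. Over 34 Hox genes in the table, control members held 0 of 295068 UMIs, which allows up to 10.2 CPM, and *Eed-cKO* members held 223 UMIs, 338 CPM, at least 33.3-fold higher. Hox UMIs were found in 60 of 103 *Eed-cKO* members (58.3%) and in all 8 *Eed-cKO* embryos with at least 5 members, at 231, 321 and 559 CPM as lowest, median and highest. The embryos of the genotypes did not overlap. *Hoxd8* was the most abundant, with 29 UMIs in 20 cells of 8 embryos, followed by *Hoxa7* with 18 UMIs, *Hoxa9* with 16, *Hoxa10* and *Hoxc6* with 14 each and *Hoxd13* with 13. Of the 34 genes, 29 had at least 1 UMI. Each single gene was rare, and 0 of the 3 that passed the filter were called by edgeR or DESeq2 (3 and 2 at an unadjusted p under 0.05).

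Hox transcripts were found at every number of markers, in 62.7% of *Eed-cKO* members with 2 markers, 59.3% with 3 and 48.0% with all 4. The *Foxj1* cells without markers held 1 Hox UMI in 211 control cells, and Hox UMIs were present in 55.6% of the *Eed-cKO* cells (399 CPM), and 21 of 21 Hox genes tested there were called higher. In cells without *Foxj1*, a Hox UMI was held by 0.102% of the control cells and 42.4% of those from *Eed-cKO*, at median totals of 4689 and 4312 UMIs.

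**Figure D5:**
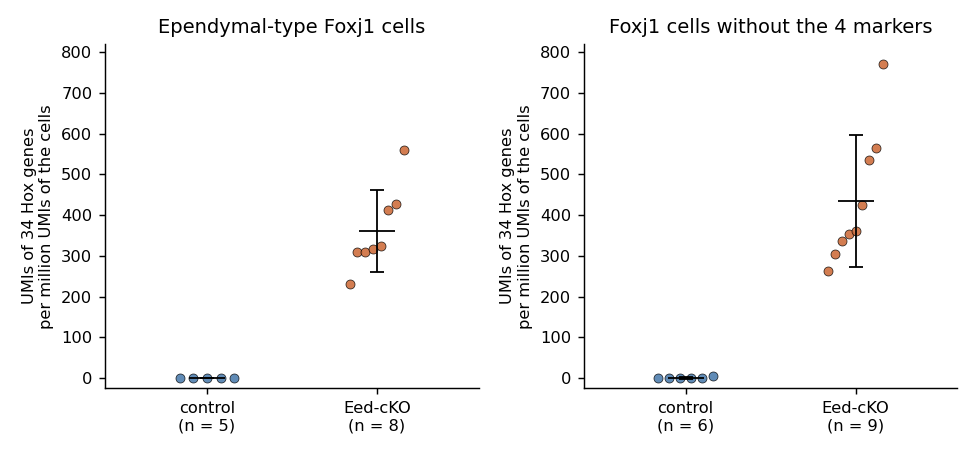
Hox UMIs (34 genes) as CPM in each embryo (y axis), for ependymal-type *Foxj1* cells (n = 5 and 8) and for *Foxj1* cells without the markers (n = 6 and 9). Control embryos lie at or near 0 and *Eed-cKO* embryos at 231 to 559 CPM in the ependymal-type cells.

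In the *Foxj1* cells without markers, 1020 of 12306 genes (8.29%) differed between the genotypes (edgeR, 6 control and 9 *Eed-cKO* embryos), 623 higher (5.06%) and 397 lower (3.23%). These sums hold more cells than the members' sums, so the counts of calls are not compared. The main rises of members were called there too: *Ccnd2* was at 59.9 ± 35.5 against 560 ± 273 CPM (log2 fold change 3.26, edgeR adjusted p = 5.16e-08), and the log2 fold changes were 3.55 for *Crym*, 2.17 for *Nes*, 2.34 for *Aqp4* and 2.74 for *Ccnd1*. Tested directly on sums of both classes with the embryo as a block, no difference between the classes passed the test for these 5 genes (for *Ccnd2* a difference of 0.02, SE 0.77, and for *Aqp4* of -0.15, SE 0.59, edgeR adjusted p = 1). *Cdkn1a* was called in the cells without markers (62.6 ± 34.5 against 196 ± 54.4 CPM, log2 fold change 1.66, edgeR adjusted p = 8.46e-05), and the difference between the classes was not called (-0.56, SE 0.46, edgeR adjusted p = 0.952). In cells without *Foxj1*, where 2855 of 12708 genes (22.5%) were called, *Ccnd2*, *Crym*, *Nes* and *Aqp4* were higher by log2 fold changes of 2.29, 3.09, 1.18 and 0.99.

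The genotype effect differed between the classes for 33 of 12821 genes (0.257%, edgeR interaction test). *Nts* fell in members, whereas without markers it was at 55.5 ± 64.7 against 59.7 ± 87.7 CPM (log2 fold change 0.19, edgeR adjusted p = 0.915), and the difference between the effects was -5.94 (SE 0.86, edgeR adjusted p = 2.55e-08). *Olig1* was at 195 ± 109 against 123 ± 93.6 CPM without markers (log2 fold change -0.45, edgeR adjusted p = 0.502), and the effects differed by 6.73 (SE 1.36, edgeR adjusted p = 0.000816). *Npy*, a neuropeptide gene chosen after its values were seen, was at 14.9 ± 23.5 against 253 ± 134 CPM in members and differed by 2.88 (edgeR adjusted p = 0.0242). For *Pltp* the difference was -2.77 (SE 0.42, edgeR adjusted p = 9.56e-08), with 27.9 ± 12.4 against 135 ± 88.4 CPM in the cells without markers, where it was called higher (edgeR adjusted p = 3.22e-05). *Msx1*, a dorsal midline factor gene, was at 201 ± 313 against 174 ± 126 CPM in members and at 1.11 ± 1.76 against 59.4 ± 37.9 CPM without markers, and the effects differed by -4.62 (SE 0.82, edgeR adjusted p = 2.76e-05).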

How the data were processed

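The authors deposited 1 table of raw UMI counts per gene and cell (16510 genes, 14121 cells, 48 libraries, E18.5 hypothalamus). Single cells were captured on the ddSEQ system with the SureCell 3′ kit, and the SureCell RNA Single-Cell pipeline aligned reads to mm10; the submitters' processing notes name STAR 2.5.2b and SAMtools 1.3. Cells under 600 UMIs, 300 genes or 1.2 UMIs per gene had been removed before deposit (lowest cell 601 UMIs, 318 genes). The table carries no cell types, and the members were found by the rule on *Foxj1* and the 4 markers. The members and the gene lists were chosen with earlier results of these data known.

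UMIs were summed per embryo over the members, for embryos with at least 5 of them, and compared by the quasi-likelihood test of edgeR 4.0.16 (R 4.3.3), after TMM scaling and with p-values adjusted by Benjamini and Hochberg (threshold 0.05). A gene entered with 15 UMIs or more in all, 2 or more in some embryo and a median of 1.5 or more on the log-CPM scale. The tested embryos held 15628 to 113069 (control) and 31521 to 175491 (*Eed-cKO*) UMIs in members. CPM are scaled to TMM-normalized totals, and pooled or summed levels (also in CPM) to plain totals. The SE is the log2 fold change divided by the square root of the F value. The class difference was tested as an interaction with the embryo as a block. Shares and cilium gene counts were compared by exact two-sided permutation over embryos (SciPy 1.17.1). The smallest p that this test could give for a share was 0.0001998. Counting error alone is covered by the intervals and by the limits, which stand for 3 counts. The 5 rule genes were left out of calls and lists. Some called genes are counted but not reported here by name.

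Named genes were the rule genes, the genes the study names for these cells and the mutation, the 10 largest rises and falls by fitted log2 fold change among called genes (fewer where fewer passed), every called gene of a list, the 4 most abundant genes of each list in control members, and the 10 largest ratios of members over *Foxj1* cells without markers (at least 50 UMIs in members). Alternatives covered DESeq2 1.42.0, limma 3.58.1 (voom with TREAT at 0.18), normalization, gene filter, sex as a covariate, cells per embryo, thinning to 1000, 2000 or 4000 UMIs and number of markers. They also covered each embryo left out in turn and removal of pituitary cells or of likely doublets (Scrublet in Scanpy 1.11.5, highest 6% of each library, 848 cells). Doublets were otherwise kept. Libraries or litters as replicates and removal of non-neural cells were tried for the shares only, and not for gene expression. Leaving out *Ttr* cells or the largest control library, taking only cells with all 4 markers, and reading the lists with an embryo left out or by marker number were added after seeing the data. The statistics were tested on simulated data first. Python 3.11.15, NumPy 2.4.6 and pandas 2.3.3 were also used. Coordinates of genes are from GENCODE vM21 on mm10.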

Additional observations from a re-analysis of the deposited data

Results flagged for a closer look

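In ependymal-type *Foxj1* cells, a single embryo stood apart from the rest of its group in 10 of 66 groups of values examined (shares, cilium gene counts, and levels of called genes and of those the study names). Chance marks about 1 in 20 groups of evenly spread values, and marks more where a level is 1 or 2 UMIs in 1 embryo and 0 in the rest, as for 3 of the 10 (*Cdkn2b* in control, *Trpc7* and *Nts* in *Eed-cKO*). The control embryo F4650 E1, which held the most control members, stood above the other control embryos for *Dgat2* (574 CPM, others 0 to 53.7), *Trpc7* (136 CPM, others 0 to 26.8), *Acta2* (104 CPM, others 0 to 13.4) and *Cdkn2b* (10.4 CPM, others 0). Among *Eed-cKO* embryos, F502 E6 stood apart for *Ttr* (118991 CPM, others up to 17.01), F0652 E8 for *Ifitm1* (284.7 CPM, others up to 107), F0582 E7 for *Cdkn2a* (161 CPM, others up to 66.6) and F0588 E7 for *Trpc7* (10.6 CPM, others 0). F0589 E1 stood apart for *Nts* (14.8 CPM, others 0) and for *Nes* (533 CPM, others 125 to 291). A level of about 10 CPM here is 1 UMI.

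The genotype effect differed between members and *Foxj1* cells without the markers for 11 of the genes named by the rule or called in members, by the interaction test given above (edgeR adjusted p under the threshold). The log2 difference was 6.73 for *Olig1*, with 0 control UMIs in members, and -5.94 for *Nts*, with 49 control UMIs from 5 cells. It was -4.62 for *Msx1*, -4.04 for *Vtn*, -2.77 for *Pltp*, -2.64 for *Col1a2* and -2.47 for *Atf3*, and 2.88 for *Npy*, 2.40 for *S100a6*, 1.55 for *Fabp7* and 1.37 for *Slc1a3*.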

How the results depend on the processing

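The members' share passed the test with libraries (difference 0.862 percentage points) or litters (0.802) as replicates, and leaving out 1 embryo gave 0.468 to 0.883. Libraries are pieces of the same embryos and not independent replicates, so the pass with libraries overstates the evidence. With embryos as replicates the test did not pass. For the cells without markers the share's difference was 1.87 to 2.63 with 1 embryo left out. The difference in cilium genes per member was -12.6 with every embryo that had a member, -18.7 after thinning to 4000 UMIs (2 control and 7 *Eed-cKO* embryos), and -12.6 to -5.73 with 1 embryo left out. The count of 36 called genes in members became 14 with limma-voom and TREAT, 9 with edgeR's own filter, 79 with no filter, 55 with embryos of at least 1 cell, 11 with at least 10, 12 after thinning, 19 without likely doublets, 55 with at least 3 markers (20 of them shared) and 1 with all 4 markers (0 shared). It was 20 to 62 with 1 embryo left out: 62 without F4690 E3, 58 without F0588 E7, 23 without F4650 E2 and 20 without F4520 E4. DESeq2 called 26. For the cells without markers the count was 461 with TREAT, 612 with edgeR's own filter, 251 after thinning, 445 without pituitary cells, and 620 to 1182 with 1 embryo left out (620 without F4530 E2). For the class difference (33 genes) it was 17 with DESeq2, 11 with TREAT, 11 with edgeR's own filter, 52 with at least 1 cell, 65 with at least 10, 4 after thinning, 20 without likely doublets, 13 without pituitary cells, and 12 to 65 with 1 embryo left out (65 without F4690 E3, 12 without F4650 E1, 17 without F4650 E2). The cause was not tested. Members as a share of the *Foxj1* cells differed by -3.25 to 2.20 percentage points with 1 embryo left out and by -11.8 to 2.46 in the other alternatives, none past the test. Of the 36 called genes, 17 were called whichever embryo was left out, and 0 changed sign in any alternative. No paired analysis was possible because the genotypes share no litter or embryo.

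Depth limits the members' results: 50 control cells in 5 embryos carry the control side of each fold. Of these cells, 35 come from a single pair of embryos that share a litter, as read from their names. A gene at 10 CPM is thus 1 UMI in the largest control sum.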
